A study of Mus musculus with 11 samples.

Results

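LGI1, LGI2, LGI3 and LGI4 are secreted ligands of the brain and peripheral nerve, and ADAM11, ADAM22 and ADAM23 are the cell surface receptors that hold them. The 7 genes that encode them were taken by symbol from the 48709 genes of the count tables, and all 7 passed the filter on low counts that left 17365 genes for testing. The group was selected on a readout of the same experiment, since the lower Adam11 level after miR-181a-5p mimic was known from earlier results of these data. Every difference between mimic and control in the 7 genes is therefore a description. Fold changes with their errors, and whether a gene was called in the fit over all genes, are given for the 7 genes as part of that description and not as evidence for their change.

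The samples were primary hippocampal neuron cultures from CD1 mouse embryos at embryonic day 17, treated on day in vitro 10 with lipid nanoparticles and harvested 48 hours later, on day in vitro 12. Lipid nanoparticles are fat droplets that carry an oligonucleotide into cells. In the 6 control samples the particles held a negative control oligonucleotide, and in the 5 mimic samples a synthetic copy of miR-181a-5p, so both groups were exposed to particles. ApoE4 was given with the particles to both groups, as the methods state. Per the methods, hippocampi of several embryos were pooled before plating, so a sample is not an animal. Polyadenylated RNA was sequenced as 50 bp single-end reads, which does not measure the mimic itself. Whether samples of a group came from separate dissections was not stated, so the p-values below measure the spread between these samples only.

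LGI proteins are built from leucine-rich repeats and EPTP repeats, and ADAM11, ADAM22 and ADAM23 are ADAM family members without protease activity that serve as their docking sites. LGI1 bridges ADAM22 and ADAM23 across the synapse, and ADAM22 is tied on its inner side to the scaffold PSD-95. This complex is known for holding AMPA receptors and Kv1 potassium channels in place, and inherited loss of LGI1 causes a lateral temporal lobe epilepsy while antibodies against LGI1 cause limbic encephalitis.

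A microRNA finds its targets mainly through bases 2 to 8, the seed, which pair with the 3′ UTR of a messenger RNA. The oligonucleotides are shown because everything that follows on target sites rests on these bases, written in capitals in RNA letters. The first line is the mimic, identical to mature mmu-miR-181a-5p of RefSeq (build GRCm38.p6), which is encoded at chr1:137966468-137966490 and at chr2:38852741-38852763, both on the plus strand. The next 3 lines are the mature miRNAs of RefSeq with the same seed, and the last is the oligonucleotide of the control samples, whose seed is different.
miR-181a-5p mimic: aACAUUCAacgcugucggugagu
mmu-miR-181b-5p: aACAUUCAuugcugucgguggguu
mmu-miR-181c-5p: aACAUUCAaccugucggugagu
mmu-miR-181d-5p: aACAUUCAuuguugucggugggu
negative control: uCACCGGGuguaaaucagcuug

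Matches of 4 classes were searched on the transcript strand in the 3′ UTR of every gene, taking the longest where several are annotated (GENCODE M21, build GRCm38), and each match was counted once, in the longest class that held it. They are the 8mer TGAATGTA, the 7mer-m8 TGAATGT, the 7mer-A1 GAATGTA and the 6mer GAATGT. Of the 7 genes, 4 had at least 1 match of 7 or 8 bases and 3 had none. The matches are shown with up to 15 bases before and 2 after, in transcript direction, with the match in capitals.
Adam11 first 8mer: acacgtctccccctgTGAATGTAgc
Adam11 second 8mer: cttaatcttaactgaTGAATGTAac
Adam22 7mer-m8: actttagatgtgcacTGAATGTtt
Lgi2 7mer-A1: ccccctgactatcagGAATGTAtg
Lgi4 7mer-A1: acgggggcaagaacaGAATGTAcg

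Adam11 (ENSMUSG00000020926, chr11:102761439-102780262, plus strand) held both 8mers of the family, at chr11:102778410-102778417 and chr11:102778665-102778672. They began 731 and 986 bases after the stop codon in a 3′ UTR of 2583 bases, 255 bases apart, and no shorter match was found beside them. The 60 bases around the first were 38.3% A and T, those around the second 56.7%, and the whole 3′ UTR 41.7%. The other annotated 3′ UTR of the gene, of 2116 bases, held both matches at the same positions.

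Adam22 (ENSMUSG00000040537, chr5:8072352-8368160, minus strand) held a single 7mer-m8 at chr5:8076589-8076595, 2091 bases into a 3′ UTR of 6334 bases. The 60 bases around it were 66.7% A and T. It also had 6mers beginning 234 and 1497 bases after the stop codon.

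Lgi2 (ENSMUSG00000039252, chr5:52533517-52566462, minus strand) held a 7mer-A1 at chr5:52533766-52533772, 249 bases before the end of a 3′ UTR of 4446 bases, and a 6mer 751 bases after the stop codon. Lgi4 (ENSMUSG00000036560, chr7:31059342-31070935, plus strand) held a 7mer-A1 at chr7:31069835-31069841, 644 bases into a 3′ UTR of 1744 bases, and a 6mer 622 bases into it.

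None of the 4 letter strings was found in the longest 3′ UTR of Lgi1 (ENSMUSG00000067242, chr19:38264536-38312214, plus strand), 5759 bases long. The same held for Adam23 (ENSMUSG00000025964, chr1:63445891-63596276, plus strand), with 3620 bases. Lgi3 (ENSMUSG00000033595, chr14:70530685-70538324, plus strand) had none in its longest 3′ UTR of 1290 bases, but its shorter annotated 3′ UTR held 1 match. Before the 3′ UTR of the same transcripts, Adam23 and Lgi2 each held 1 match with the 7mer-m8 letters and the other 5 genes none.

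**Figure D1:**
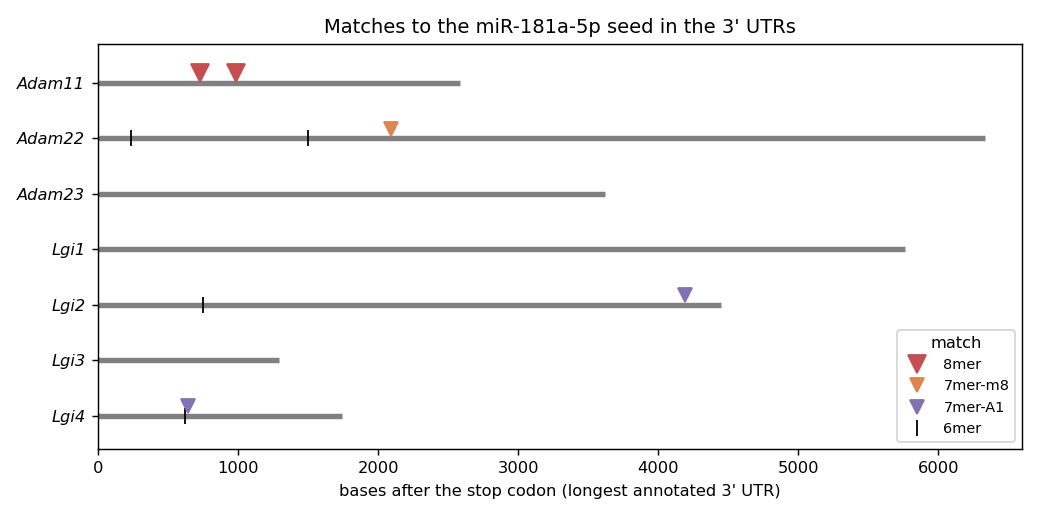
Matches to the miR-181a-5p seed along the 3′ UTR of the 7 genes (the longest annotated one), with bases after the stop codon on the x axis, grey bars for the length of the 3′ UTR and a symbol for each class of match. Adam11 carries both 8mers, at 731 and 986 bases, and the long 3′ UTRs of Lgi1 and Adam23 carry no match.

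Among the 14512 tested genes with an annotated 3′ UTR, 6.20% held at least 1 8mer and 0.655%, or 95 genes, held at least 2 as Adam11 did. A 7mer-m8 without an 8mer was the best match in 13.04% and a 7mer-A1 in 5.55%, while 61.4% held none of the 4 strings. Longer 3′ UTRs held more matches, with a median length of 4009 bases for genes with at least 2 8mers and 893 bases for genes with none. For the negative control oligonucleotide, a 7mer-m8 or 8mer was present in 3.36% of the genes and in no member of the family, and Adam11 held 1 shorter match to it, of 6 bases. The study's own list of predicted miR-181a-5p targets named 3 of the 7 genes, namely Adam11, Adam22 and Lgi2, and Adam22 was also on its list for miR-148a-3p.

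Levels are given as CPM, the reads of a gene per 1000000 reads of the sample, after scaling of the samples by the trimmed mean of M values (TMM). To compare genes with one another they were divided by the length of all annotated exons in kilobases. On this scale Adam11 had the highest level in the 6 control samples, 39.8 ± 1.3 CPM per kilobase (SD, n = 6), followed by Adam22 with 16.8 ± 0.236, Lgi2 with 13.4 ± 0.320, Adam23 with 9.77 ± 0.121 and Lgi1 with 8.18 ± 0.306. Lgi3 stood at 1.21 ± 0.122 and Lgi4 at 0.0627 ± 0.0158 CPM per kilobase.

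RNA of all 3 receptors and of the ligands LGI1 and LGI2 was thus above that of LGI3, and RNA of LGI4 was lowest. Each of the 6 neighbouring pairs in this order differed in the same direction in 6 of 6 control samples. The mean log2 difference within a sample was 1.24 for Adam11 over Adam22, 0.33 for Adam22 over Lgi2, 0.46 for Lgi2 over Adam23, 0.26 for Adam23 over Lgi1, 2.75 for Lgi1 over Lgi3 and 4.10 for Lgi3 over Lgi4. The two-sided exact sign-flip permutation p was 0.0312 for each, also after Benjamini-Hochberg adjustment over the 6 pairs, and this is the smallest p that 6 samples allow. Since the order was taken from the same 6 samples, the p adds nothing beyond the direction that each pair kept in all of them.

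The order of the middle genes depended on the length used. Adam23 has 17907 bases of annotated exons, but its longest transcript has 6426 bases. Divided by the longest transcript, Adam23 rose to second place with 27.2 ± 0.338 CPM per kilobase (SD, n = 6), just above Adam22 with 26.1 ± 0.366, and Lgi2 minus Adam23 turned to -1.01 on the log2 scale. The differences of the other neighbours became 0.76 for Adam11 over Adam22, 0.95 for Adam22 over Lgi2 and 1.19 for Adam23 over Lgi1. Adam11 stayed first with 44.3 ± 1.45 CPM per kilobase, and Lgi1, Lgi3 and Lgi4 stayed last in the same order with either length.

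**Figure D2:**
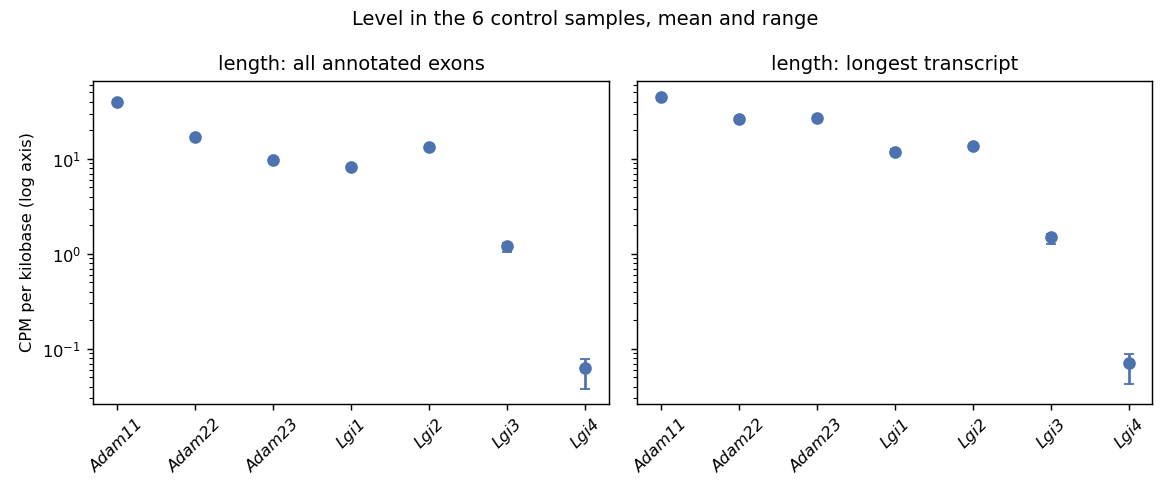
Level of each gene in the 6 control samples in CPM per kilobase on a log axis, with points for the mean and bars from the lowest to the highest sample, for the length of all annotated exons on the left and of the longest transcript on the right. Adam11 is highest and Lgi4 lowest with both lengths, and Adam23 moves from 9.77 to 27.2 CPM per kilobase.

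Adam11 is the receptor best known from cerebellar interneurons, where it places Kv1 channels at the basket cell terminal. Its level in CPM was 236, 220.4, 235, 222, 222 and 219.8 in control samples 1 to 6 and 201, 189.8, 199, 197 and 186 in mimic samples 1 to 5. All 5 mimic samples were below all 6 control samples, and the control samples themselves fell into a pair near 235 and 4 samples near 220. The means were 226 ± 7.39 CPM (SD, n = 6) and 195 ± 6.46 CPM (SD, n = 5), from 3674 to 11217 reads a sample. The edgeR log2 fold change, mimic minus control, was -0.22 (SE 0.028, 95% interval -0.27 to -0.16), so that the control level was 1.16 times the mimic level.

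Adam22 encodes the receptor that joins LGI1 and, in nerve, LGI4 to the scaffolds inside the cell. It measured 244, 244, 236, 244, 243 and 239 CPM in control samples 1 to 6 and 246, 239, 234, 244 and 246 CPM in mimic samples 1 to 5. The groups overlapped over nearly their whole range, with means of 242 ± 3.38 (SD, n = 6) and 242 ± 5.11 CPM (SD, n = 5). The log2 fold change was 0.0014 (SE 0.024) with a 95% interval from -0.047 to 0.050. Adam22 carries a 7mer-m8 in its longest 3′ UTR, but not in its shorter annotated ones, and is on the list of predicted targets.

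Adam23, the mainly presynaptic receptor of LGI1, measured 173, 174, 173, 178, 175 and 178 CPM in the control samples and 172, 164, 164, 167 and 177 CPM in the mimic samples. Of the mimic samples, 4 lay below the lowest control sample and mimic sample 5 lay among the highest. The log2 fold change was -0.054 (SE 0.026, 95% interval -0.11 to -0.0012), and the call over all genes was not passed.

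Lgi1 encodes the epilepsy-linked ligand of ADAM22 and ADAM23. It measured 96.0, 90.5, 90.4, 90.3, 91.7 and 98.4 CPM in control samples 1 to 6 and 83.8, 82.3, 88.5, 83.2 and 82.9 CPM in mimic samples 1 to 5. All mimic samples were below all control samples, by a small gap because mimic sample 3 stood apart from the other 4. The log2 fold change was -0.14 (SE 0.031, 95% interval -0.21 to -0.081), the second largest fall of the 7 genes, and none of the 4 seed strings lies in its 3′ UTR. Lgi1 shares 532 exon bases with the antisense gene Gm42723, which had 69 reads over all 11 samples. The library kit does not keep strand, and how reads over shared exons were counted was not stated. A loss of Lgi1 reads there was not tested.

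Lgi2, whose loss causes a juvenile epilepsy in dogs, measured 88.2, 87.8, 89.0, 86.6, 89.6 and 83.8 CPM in the control samples. In mimic samples 1 to 5 it measured 84.5, 85.6, 80.3, 82.3 and 84.0 CPM. All 5 mimic samples were below the control mean but only 2 were below the lowest control sample, and the log2 fold change was -0.069 (SE 0.028, 95% interval -0.13 to -0.011), not called over all genes.

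Lgi3, a further neuronal and glial ligand of the family, was low, between 4.04 and 5.11 CPM in control and between 4.10 and 5.88 CPM in mimic samples. Its groups overlapped, with a log2 fold change of 0.047 (SE 0.098, 95% interval -0.15 to 0.25). Lgi4, the ligand that Schwann cells release for myelination, had only 3 to 17 reads a sample, or 0.162 to 0.379 CPM over the 11 samples. Its log2 fold change of -0.13 had a 95% interval from -0.77 to 0.52, so a change of the size seen in Adam11 was not detectable at this depth. Lgi4 also shares 2059 exon bases with Fxyd3 on the opposite strand, which had 7 reads in all. How reads over shared exons were counted was not stated, and a loss of Lgi4 reads there was not tested.

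**Figure D3:**
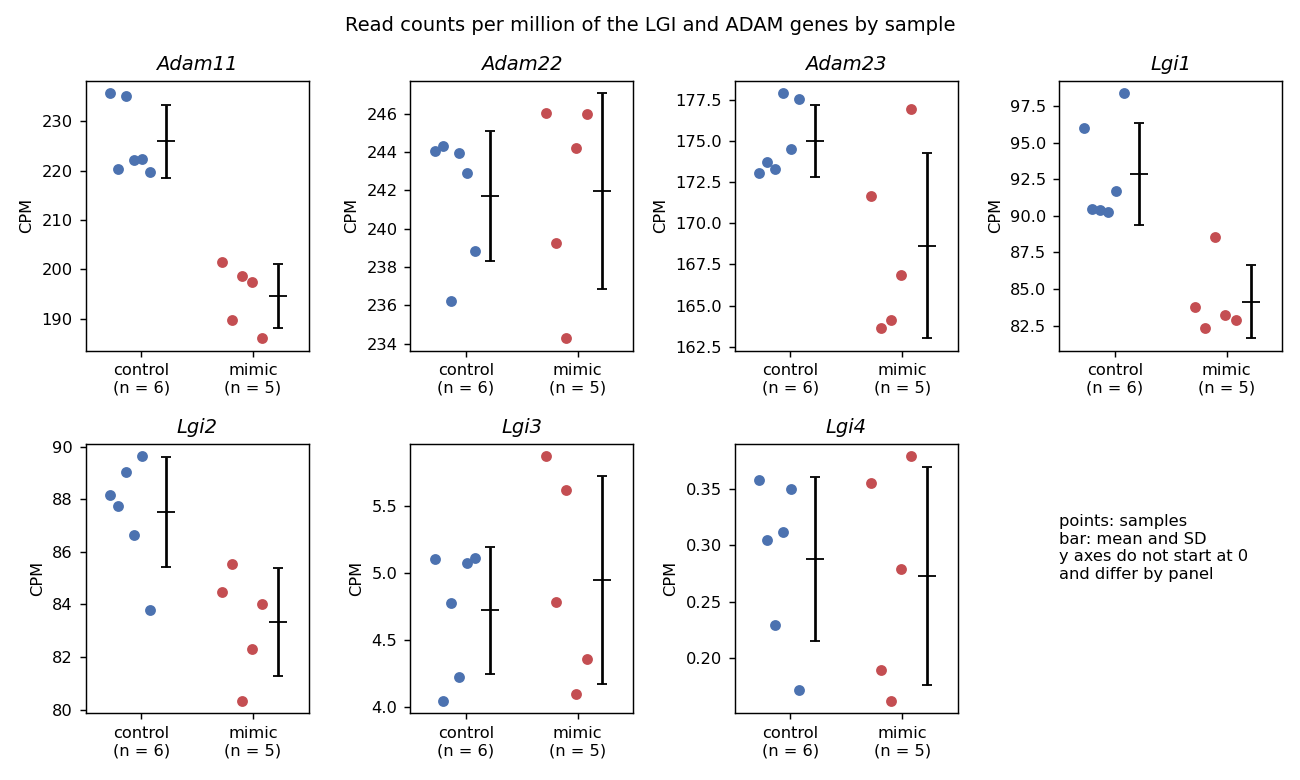
CPM of each gene in the 6 control samples (blue) and 5 mimic samples (red), in order of sample number, with the mean and SD as a bar and y axes that do not start at 0. Only in Adam11 and Lgi1 do all mimic samples sit below all control samples, at 186 to 201 against 219.8 to 236 CPM and at 82.3 to 88.5 against 90.3 to 98.4 CPM.

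In all, 2 of the 7 genes, Adam11 and Lgi1, passed the threshold of an adjusted p of 0.05 over all genes (edgeR quasi-likelihood test with Benjamini-Hochberg adjustment), both lower after mimic, where 2.85% of all tested genes passed and 1.77% passed as lower. The all-gene calls were 307 lower and 188 higher, and with upper-quartile scaling 226 lower and 234 higher. The same 2 genes had all mimic samples below all control samples, as did 1.73% of all tested genes. With the replicate number as a block, only Adam11 was called, and Lgi1 was not (log2 fold change -0.12, edgeR adjusted p = 0.055). The 7 log2 fold changes had a median of -0.069 and 5 were below 0, beside a median of -0.00018 over all tested genes, but nothing is read from these counts because the family was chosen by this comparison.

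Of the 2 called genes, 1 was on the list of predicted targets. Of the 3 listed genes, Adam11 was lower, Adam22 had a log2 fold change of 0.0014 and Lgi2 one of -0.069, and Lgi1 was lower without being listed. Over the 95 tested genes with at least 2 8mers, the median log2 fold change was -0.068 and 11 were called lower, and Adam11 had the sixth most negative value among them. Over the 1598 genes with 1 7mer-m8 and no 8mer, as in Adam22, the median was -0.013 and 51 were called lower, and over the 8914 genes with none of the strings, as in Lgi1 and Adam23, the median was 0.0095 and 95 were called lower. In shares, 11.6% of the genes with at least 2 8mers and 3.19% of those with 1 7mer-m8 and no 8mer were called lower. Of the 805 genes with a 7mer-A1 as best match, as in Lgi2 and Lgi4, 4.35% were called lower, with a median of -0.019. Of the genes with none of the strings, 1.07% were called lower, beside 2.03% of all genes with a 3′ UTR. Of the 488 genes with an 8mer or 7mer-m8 for the negative control oligonucleotide, 3.89% were called lower, with a median of -0.0087 and a median 3′ UTR length of 2538 bases.

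Ratios between genes within a sample do not depend on how the samples are scaled. The reads of Adam11 per read of Adam22 were 0.966, 0.902, 0.995, 0.911, 0.915 and 0.920 in control samples 1 to 6 and 0.819, 0.793, 0.848, 0.808 and 0.756 in mimic samples 1 to 5, with no overlap. Of all reads on the 3 receptors, the control samples gave 35.1 ± 0.892% to Adam11 (SD, n = 6), and the mimic samples 32.2 ± 1.01% (SD, n = 5). The share of Adam22 was 37.6 ± 0.569% in control and 40.0 ± 0.487% in mimic samples, and Adam23 stood at 27.2 ± 0.501% and 27.9 ± 0.679%. Adam22 took the largest share in both groups. Its own level was 242 CPM in both, so its larger share after mimic mainly restates the lower level of Adam11. Since Adam11 led to the choice of the family, nothing further is read from these shares.

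For the ligands, the reads of Lgi1 per read of Adam22 ranged from 0.370 to 0.412 in control samples and from 0.337 to 0.378 in mimic samples, so the groups overlapped through mimic sample 3. Lgi1 and Lgi2 split the ligand reads almost evenly, where Lgi1 took 50.1 ± 1.31% of them under control (SD, n = 6) and 48.7 ± 1.21% (SD, n = 5) under mimic. The summed reads of the 3 receptors were 636 to 653 CPM in control and 593 to 619 CPM in mimic samples, and those of the 4 ligands 181.5 to 189.6 CPM and 169.9 to 175 CPM. Both sums were lower in every mimic sample than in every control sample. The mean receptor sum went from 643 to 605 CPM, and the mean of Adam11 alone from 226 to 195 CPM. The mean ligand sum went from 185 to 173 CPM, and that of Lgi1 alone from 92.9 to 84.1 CPM. The sums thus mainly follow Adam11, which led to the choice of the family, and Lgi1, and Adam22 did not fall.

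Cell type markers moved between the groups as well. The 6 neuron markers summed to 6192 to 6334 CPM in control and 5940 to 6099 CPM in mimic samples. Of the 6, 5 had a log2 fold change below 0, and 5 had an unadjusted edgeR p under 0.05. The 1 called was Slc17a7, the vesicular glutamate transporter of excitatory neurons, with -0.14 (edgeR adjusted p = 0.0239). The 8 fibroblast and vascular markers summed to 249 to 386 CPM in control and 397 to 531 CPM in mimic samples. All 7 tested ones were above 0 with a median log2 fold change of 0.45. None of them was called by edgeR, 6 had an unadjusted p under 0.05 and 3 were called by DESeq2, and the endothelial marker Cldn5 was at 0 in 10 of 11 samples. In bulk RNA, fewer neurons and less of a transcript in each neuron cannot be told apart.

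Beside the neuron markers the fall of Adam11 was smaller but kept its separation. This scale rests largely on few genes. Of the mean control sum of 6239 CPM, Map2 gave 2606 CPM, and Slc17a7, itself called lower, gave 927 CPM. Per 1000 CPM of neuron markers, Adam11 was 35.4 to 37.7 CPM in control and 30.9 to 33.1 CPM in mimic samples, a log2 difference of the means of -0.16. Lgi1 was 14.5 to 15.9 CPM in control and 13.7 to 14.7 CPM in mimic samples on this scale, a difference of -0.088 with overlapping groups. Adam22 was 37.9 to 39.2 CPM and 39.0 to 40.9 CPM, a difference of 0.056. The differences of Adam23 and Lgi2 nearly vanished on this scale, at 0.00079 and -0.016, and Lgi3 and Lgi4 stood at 0.12 and -0.022. The part of the fibroblast and vascular markers in these differences was not tested.

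Astrocyte markers summed to 2489 to 2783 CPM in control and 2341 to 2611 CPM in mimic samples, so the cultures held glia beside neurons, and oligodendrocyte lineage markers to 315 to 381 and 287 to 331 CPM. Interneuron markers summed to 474 to 517 and 462 to 497 CPM, and microglia markers to 13.4 to 13.7 and 12.7 to 13.9 CPM. None of the tested markers of these 4 lists was called by edgeR, while 3 of 7 astrocyte, 3 of 8 oligodendrocyte lineage, 1 of 8 interneuron and 2 of 6 microglia markers had an unadjusted p under 0.05, and DESeq2 called 1 astrocyte and 1 oligodendrocyte lineage marker.

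The other genes of the pathway and of the protein families were 57 in number, of which 52 could be tested. Of these, 4 were called and all 4 were lower in mimic samples, namely Kcna1, Kcna2, Lin7a and Adam8, beside the 1.77% of all tested genes called lower. The median log2 fold change of the 52 was -0.012, and 29, or 55.8%, were below 0, beside 50.1% of all tested genes. Of the 57 genes, 9 were on the list of predicted targets, and none of the 4 called genes was among them.

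The Kv1 potassium channels, which LGI1 and ADAM22 hold at the axon, gave 2 of these calls among 8 tested subunits. Kcna1, which encodes Kv1.1, measured 96.2 to 111 CPM in control and 85.8 to 95.9 CPM in mimic samples, without overlap, with -0.17 on the log2 scale (SE 0.035, edgeR adjusted p = 0.00662). Kcna2, which encodes Kv1.2, measured 137 to 149 CPM in control and 126 to 131 CPM in mimic samples, also without overlap, with -0.16 (SE 0.027, edgeR adjusted p = 0.00155). Kcna2 held 1 7mer-A1 in its 3′ UTR and Kcna1 none of the matches of 7 or 8 bases. Kcna4 gave -0.11 (edgeR adjusted p = 0.123), and the median of the 8 subunits was -0.029, with 4 of them below 0.

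Of the 8 MAGUK and LIN7 scaffolds, Lin7a was called with -0.14 (SE 0.035, edgeR adjusted p = 0.0289) and 162 to 180.6 CPM in control against 144 to 167 CPM in mimic samples, with overlapping groups. Dlg4, which encodes PSD-95, the scaffold under ADAM22, gave -0.051 (edgeR adjusted p = 0.383), and Dlg2, which encodes PSD-93, gave -0.048 (edgeR adjusted p = 0.268). None of the 8 AMPA receptor subunits and auxiliary TARPs was called by edgeR or DESeq2, and 1 had an unadjusted p under 0.05. That gene was Gria3, with -0.092 (edgeR adjusted p = 0.11), and 6 of 8 were below 0.

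The 7 genes of 14-3-3 proteins, which bind the inner tail of ADAM22, gave no call by edgeR or DESeq2, no unadjusted p under 0.05 and a median of 0.011. Of the 7, 1 was below 0, and the smallest p was that of Ywhab with -0.029 (edgeR adjusted p = 0.572). The 6 genes of the axon initial segment and juxtaparanode, where Kv1 channels sit, were all below 0 with a median of -0.042. Their values ran from -0.11 to -0.00016, so some were close to no change. None of the 6 was called by edgeR in the main fit or by DESeq2, and 2 had an unadjusted p under 0.05. Cntnap1, the paranodal protein CASPR, came first among them with -0.11 (edgeR adjusted p = 0.159), and was called by edgeR without a count filter. Of the other LGI1 partners and epilepsy genes, Rtn4r, the Nogo receptor, gave -0.081 (edgeR adjusted p = 0.466), and none of the 4 was called by edgeR or DESeq2 or had an unadjusted p under 0.05.

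Among the 14 other ADAM genes, 10 were tested and the only call was Adam8, a catalytically active protease of immune cells, at 4.35 to 5.34 CPM in control and 3.42 to 4.26 CPM in mimic samples, with -0.36 on the log2 scale (SE 0.087, edgeR adjusted p = 0.0197). Of the 10, 4 had an unadjusted edgeR p under 0.05. Besides Adam8 these were Adam12 with 0.12, Adam19 with 0.091 and Adam15 with 0.073, all higher after mimic. The median of the 10 was 0.013, and 4 were below 0. The general sheddases Adam10 and Adam17 gave 0.021 and 0.0056. Adgrv1, the other EPTP repeat gene that was tested, gave -0.073 (edgeR adjusted p = 0.52).

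**Figure D4:**
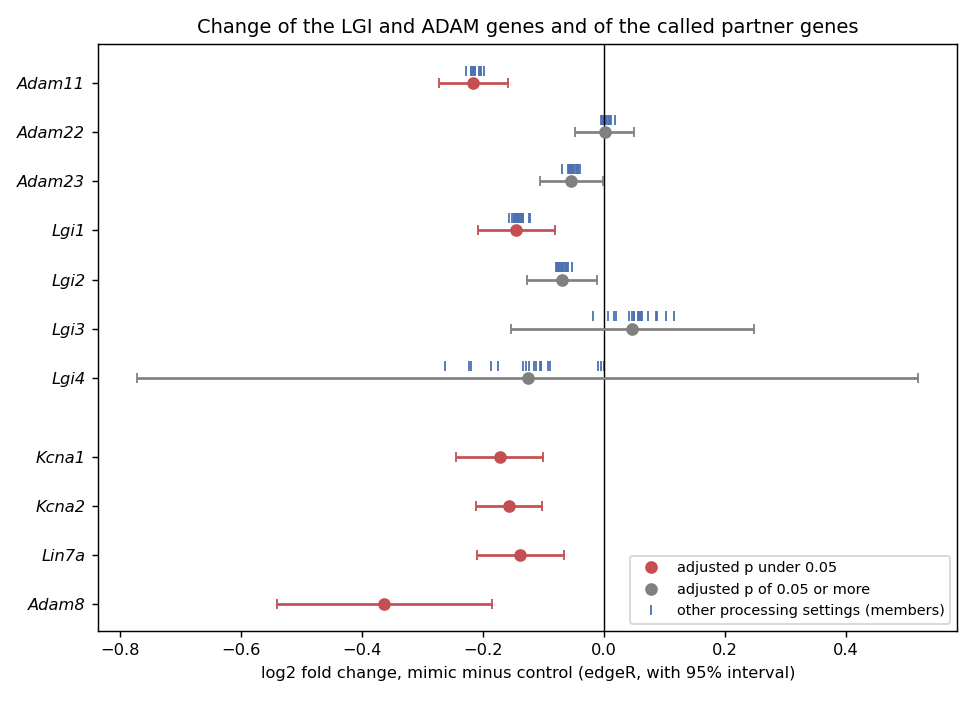
Log2 fold change, mimic minus control, from edgeR with its 95% interval for the 7 genes and for the 4 called partner or family genes, with red for an adjusted p under 0.05 and short blue marks for the 7 genes under the other processing settings. Adam11 lies at -0.22 and Lgi1 at -0.14, Adam22 lies at 0.0014, and the interval of Lgi4 spans -0.77 to 0.52.

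**Figure D5:**
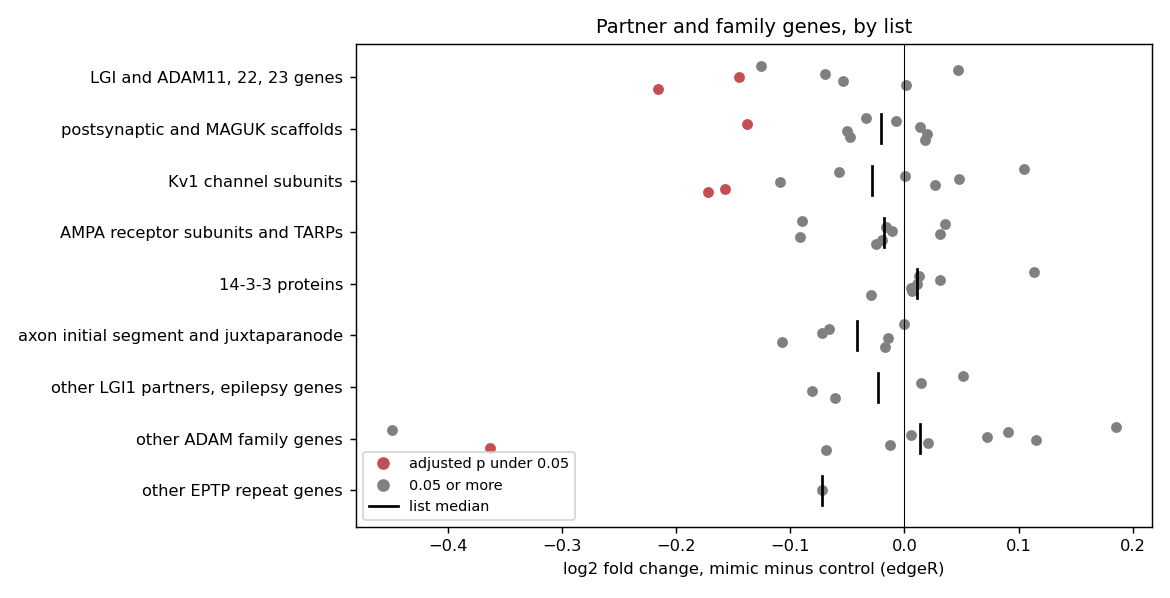
Log2 fold change, mimic minus control, of each tested gene by list, with red points for an adjusted p under 0.05, grey points otherwise and a black bar at the median of each partner list. The 4 red points outside the top row are Lin7a, Kcna1, Kcna2 and Adam8, all below 0.

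The pattern of Adam11 over the 11 samples was compared with that of the genes at a mean of at least 10 CPM by Pearson's r of log2 CPM, as a description, since all values share the same libraries and the same contrast. The 5 most alike genes were 2900026A02Rik with r = 0.96, and Csmd1, Wipf3, Atp2b2 and Atrnl1, each with r = 0.96. By Spearman's rho they ranked 164, 63, 43, 8 and 50 among 9672 genes, and by r after removal of the group means 680, 298, 387, 321 and 1109, so within groups other genes were more alike. After that removal, r was 0.72 for 2900026A02Rik, 0.79 for Csmd1, 0.77 for Wipf3, 0.79 for Atp2b2 and 0.65 for Atrnl1. Of these 5, Atp2b2, a calcium pump of the plasma membrane, held an 8mer in its 3′ UTR and was on the list of predicted targets.

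Within the family, r with Adam11 was 0.83 for Lgi1, 0.70 for Lgi2, 0.49 for Adam23 and -0.10 for Adam22. After removal of the group means these values were 0.20, 0.057, -0.40 and -0.21, so that within groups no member followed Adam11 closely.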

How the data were processed

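Per the labels and the study's methods, libraries (TruSeq RNA Library Prep Kit v2, which does not keep strand) were mapped by the authors to mm10 with STAR 2.5.2b and reads per Ensembl gene were counted with featureCounts (Subread 1.5.1). Quality control used FastQC 0.11.5. The annotation release, and strand and multi-mapping options, were not given in the sources used here. The authors deposited raw counts for each sample and 1 table of normalised signal, the counts divided by a size factor per sample, which served as an alternative.

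The 6 control and 5 mimic samples held 17287168 to 48091231 counts, so 3 reads corresponded to 0.0630 to 0.175 CPM, and control sample 1 was the deepest. Replicate pairs differed beyond sampling noise (chi-square per degree of freedom 1.25 to 6.05), so each was counted once. Genes with at least 5 counts in 50% of samples were kept. The main test was edgeR 4.0.16 (R 4.3.3), quasi-likelihood with TMM scaling, no covariates and Benjamini-Hochberg adjustment over all tested genes, checked on simulated data. Alternatives were DESeq2 1.42.0, other scalings and filters, limma 3.58.1 on the normalised table, a replicate block and leaving out each sample. Numbers shared by control and mimic samples did not pair them, as same-numbered samples had correlations of -0.078 to 0.069 of their deviations from the group means.

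Of the gene IDs, 48349 of 48709 matched GENCODE M21, from which coordinates, exon lengths and 3′ UTRs were taken. Oligonucleotide sequences were from the study's supplement and mature miRNAs from RefSeq. Levels used a pseudocount of 0.01 CPM per kilobase on the log2 scale.

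The members and gene lists were chosen with earlier results of these data known. Named were the 7 members, the called genes and the gene with the smallest p of each partner list, and the 5 genes most like Adam11. Chosen after their values were seen were Dlg4, Dlg2, Kcna4, Adam10, Adam12, Adam15, Adam17, Adam19, Map2, Slc17a7 and Cldn5.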

Additional observations from a re-analysis of the deposited data

Results flagged for a closer look

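In 54 sets of values, each from 1 group of samples, the highest or lowest sample was compared with the others by Dixon's gap over range, and 5 stood apart, where chance gives about 1 in 20. Lgi1 in mimic sample 3 was at 88.5 CPM, above the other 4 mimic samples at 82.3 to 83.8 CPM, and its reads per read of Adam22 were 0.378 in the same sample, above the others. The share of Adam23 among the receptor reads was 29.1% in mimic sample 5, above the other mimic samples. The summed neuron markers were 6334 CPM in control sample 1, the highest of the control samples. The share of mitochondrial reads was 3.48% in control sample 2, above the other control samples. No cause of these values was tested.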

How the results depend on the processing

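The members' values are descriptions, since Adam11 led to their choice. Adam11 was called under each of the 19 tested alternatives, with log2 fold changes of -0.23 to -0.20, and scaled to the neuron markers, a setting chosen after seeing the data, it stood at -0.16. Lgi1 passed under 18 of 19 and was at -0.12 with an adjusted p of 0.055 with the replicate number as a block, which leaves 1 member called. Scaled to the neuron markers, Lgi1 stood at -0.088. The numbers share no stated litter or day. The block fit tested 17548 genes, as did the fit without control replicate 6, a number that no mimic sample has. Without control replicate 6 and with no block, Lgi1 was at -0.123 and still called (edgeR adjusted p = 0.027). The cause of the lost call with the block was not tested. The other 5 members passed under no alternative. Adam22 changed sign near 0, at -0.0032 without a count filter and -0.00041 with at least 10 counts in every sample, and lay between -0.0052 and 0.018 when 1 sample was left out. Lgi3 lay between -0.018 and 0.12 when 1 sample was left out, below 0 without mimic replicate 1 alone. Without a count filter 5 partner genes were called, the 4 of the main fit and Cntnap1. Leaving out 1 sample kept 2 members called and gave 2 to 4 partner genes called. The count was 2 without control replicate 1, mimic replicate 2 or mimic replicate 4, in each case Kcna1 and Kcna2, which passed under all 19 alternatives, while Adam8 passed under 14 and Lin7a under 11.

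In the order of levels, Lgi2 minus Adam23 turned to -1.01 with the longest transcript, and Adam11 minus Adam22 became 0.76, Adam22 minus Lgi2 0.95 and Adam23 minus Lgi1 1.19. In mimic samples the log2 differences were 1.03 for Adam11 minus Adam22, 0.40 for Adam22 minus Lgi2, 0.35 for Adam23 minus Lgi1 and 2.55 for Lgi1 minus Lgi3. With 5 samples the permutation test cannot go below 0.0625. Counting a match in any annotated 3′ UTR, Lgi3 had 1 match in place of 0 and the other members were the same. The shorter annotated 3′ UTRs of Adam22, of 76 to 1189 bases, held no match of 7 or 8 bases. Those of Lgi4, of 184 to 505 bases, held none either. Depth limits Lgi4, with 3 to 17 reads a sample.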
